A study of Homo sapiens with 12 samples.

Results

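The baseline of Ishikawa cells carrying a control hairpin (shNC) was described from 6 libraries of the 12 in the series. These are all the libraries that the labels place in the control genotype, and levels, not changes, are the main subject. Ishikawa is a cell line from a human endometrial adenocarcinoma, known in the field as a glandular, epithelial line used to study estrogen and progesterone receptors. Before treatment the cells had been kept in medium free of phenol red, with serum stripped of steroids by charcoal. They then received, for 8 h, the vehicle DMSO, estradiol (E2) at 10 nM, or the same E2 dose together with fulvestrant at 100 nM. Fulvestrant blocks the estrogen receptor and leads to its breakdown. Each treatment had 2 libraries. All 6 share the control hairpin and the stripped serum, so none is an untreated, unmodified line, and they come from 1 line. Whether paired libraries of 1 treatment stem from separate cultures is not in the labels, so p-values measure only the spread between libraries, which may be technical.

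A transcriptome of this kind is dominated by a small set of transcripts: those of the mitochondrial genome, the ribosome, the cytoskeleton and central metabolism. Lineage is read from a far smaller set, such as keratins and cadherins in epithelium, and from transcription factors that are on or off. Nuclear receptors are ligand-regulated transcription factors, and in endometrium the estrogen receptor induces the progesterone receptor, while stromal and glandular cells differ in both.

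The 6 libraries held 28810351 to 33517594 counts in genes, and 21663 to 22076 genes had a count. Levels are given as CPM, counts scaled to the library total, within a gene. Between genes they are given per length, as CPM per kb of counted length, and errors are the SD over the 6 libraries (n = 6), which spans the 3 treatments. Of 45320 genes, 12707 (28.0%) had at least 1 CPM in all 6 libraries and are called present. Another 23391 had 3 counts or fewer in each library and are called at or under the floor, 18280 of them with 0 counts in all 6. The remaining 9222 are called intermediate. A count of 3 was 0.0895 to 0.104 CPM, which covers counting error only. Among 15112 genes whose symbol is protein coding in GENCODE v29, 9768 (64.6%) were present. The median level of those 9768 genes was 9.67 per kb. Each count of present members in the lists below is to be set beside that 64.6%.

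The counted length limits what a low value can show. Counting over only part of a gene was common in these files, and 4047 of the 15112 coding genes (26.8%) had under 50% of the exon length that v29 gives them, and the median was 78.0%. Beside the genes named below for 0 or few counts, the percentage in parentheses or in the text is therefore the counted share of the v29 exon length. A high share does not show that a gene with 0 counts is silent, since how its reads were assigned was not tested. Of 20052 RefSeq coding symbols, 14582 had a row by that symbol and 1247 by a synonym. Of the 45320 rows, 14014 were named by an Ensembl identifier, and these were not matched to symbols. Listed genes with no row by symbol, such as CD24, SOX17, FOXA2, EP300 and SNAI2, are not analysed here. Whether they were counted under an identifier was not tested.

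For 4 genes, with high counts or with none, 300 bases around a RefSeq start follow (GRCh38.p14, 250 before it and 50 after). The start is the one listed first for the gene. Whether it is the main start was not tested, so a window may lie away from the main promoter. GAPDH and ASS1 are among the nuclear coding genes with the highest levels. S100A4 is high, and its window holds a TATA box. PGR, the progesterone receptor gene, had 0 counts over the 16.3% of its v29 exon length that was counted. Capitals mark each match, on either strand, to the TATA box (TATAAA), the CCAAT box (CCAAT), the GC box (GGGCGG), the E-box (CAGGTG) or the palindromic estrogen response element (GGTCANNNTGACC).
GAPDH (chr12:6535014-6535313, strand +): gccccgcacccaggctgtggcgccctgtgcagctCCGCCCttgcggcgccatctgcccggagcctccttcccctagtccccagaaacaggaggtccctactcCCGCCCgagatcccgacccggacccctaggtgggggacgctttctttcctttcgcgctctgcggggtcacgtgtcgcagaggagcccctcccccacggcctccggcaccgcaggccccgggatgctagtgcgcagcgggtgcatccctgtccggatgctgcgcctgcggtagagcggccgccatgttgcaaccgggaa
ASS1 (chr9:130444457-130444756, strand +): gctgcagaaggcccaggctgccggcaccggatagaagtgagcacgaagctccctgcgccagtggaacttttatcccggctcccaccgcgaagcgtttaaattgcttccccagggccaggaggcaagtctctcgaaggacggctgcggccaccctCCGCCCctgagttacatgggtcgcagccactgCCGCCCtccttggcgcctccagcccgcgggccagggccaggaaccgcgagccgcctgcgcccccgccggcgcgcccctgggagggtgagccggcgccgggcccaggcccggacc
S100A4 (chr1:153545757-153546056, strand -): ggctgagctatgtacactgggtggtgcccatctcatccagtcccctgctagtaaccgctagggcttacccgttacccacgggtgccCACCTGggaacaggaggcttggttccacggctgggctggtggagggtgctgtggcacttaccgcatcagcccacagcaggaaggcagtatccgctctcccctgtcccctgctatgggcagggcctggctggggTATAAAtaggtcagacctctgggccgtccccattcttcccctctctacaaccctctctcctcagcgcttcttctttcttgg
PGR (chr11:101129028-101129327, strand -): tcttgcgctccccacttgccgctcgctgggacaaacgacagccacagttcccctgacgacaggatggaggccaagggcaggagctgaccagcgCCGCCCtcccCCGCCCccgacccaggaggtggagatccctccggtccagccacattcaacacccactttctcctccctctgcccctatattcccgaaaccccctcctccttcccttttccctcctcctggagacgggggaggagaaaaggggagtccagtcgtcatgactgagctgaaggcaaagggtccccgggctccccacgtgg

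The windows of GAPDH, ASS1 and PGR each carried 2 GC boxes. That of S100A4 held 1 TATA box and 1 E-box. Over the 11751 coding genes with a RefSeq start (the one listed first for each symbol, 77.8% of the 15112), the GC box was in 63.1% of windows, the CCAAT box in 36.0%, the E-box in 19.5% and the TATA box in 7.43%. The estrogen response element was in 4 windows, or 0.0340%. The ratio of observed to expected CpG had a median of 0.41 in the 2246 genes at or under the floor, 0.56 in the 1625 intermediate genes, and 0.89 in the 364 present genes with a level of at least 100 per kb. The share with a GC box was 41.2% in the floor class and 75% in that highest class. The TATA box did not follow the same order. It was in 14.4% of windows in the floor class, 3.90% of the 3534 present genes between 10 and 100 per kb, and 10.4% of those at 100 or more. These are descriptions of windows of fixed length, and a match is not evidence that a factor binds.

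Counts were concentrated in few genes. The 10 genes with most counts held 6.73% of all counts, the top 100 held 21.4% and the top 1000 held 54.4%. It took 795 genes to reach 50% of counts and 5200 to reach 90%. Mitochondrially encoded genes took 4.91% ± 0.140 (SD, n = 6) of counts, with all 13 coding rows present. MT-CO1, the catalytic subunit of cytochrome oxidase, was highest of all at 10310 ± 207 per kb. It had 15598 and 16385 CPM in DMSO, 15827 and 16033 in the E2 libraries, and 15519 and 16029 with fulvestrant added, and its highest library was 1.06 times the lowest. MT-CO2, MT-CO3 and MT-ATP6 followed at 6760 ± 291, 6668 ± 179 and 6153 ± 259 per kb. MT-ND4, MT-ND2, MT-ND1 and MT-CYB, also of the respiratory chain, were at 4152 ± 234, 3224 ± 132, 2443 ± 128 and 2236 ± 78.7 per kb.

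Of the 25 genes with the highest level per length (counted length at least 300 bases), 9 were mitochondrially encoded, 7 were processed pseudogenes, 6 were nuclear coding genes and 3 had no v29 symbol. The pseudogenes were PPIAP22, EEF1A1P5, RPL13AP5, RPL7AP6, RPL18AP3, RPLP0P6 and RPS2P5, and the genes with no v29 symbol were RP11-475C16.1, RP11-234A1.1 and RP11-425L10.1. The 6 nuclear coding genes were FTH1, ASS1, GAPDH, ACTB, ACTG1 and RPL8. FTH1, the heavy chain of ferritin, which stores iron, stood at 4003 ± 172 per kb and had 6423 to 7278 CPM. ASS1, argininosuccinate synthase of the arginine and urea cycle pathway, reached 2456 ± 85.5 per kb. It had 6239.8 and 5728 CPM in DMSO, 5915 and 5819.7 in the E2 libraries, and 5803 and 5662 with fulvestrant added. GAPDH (2354 ± 119 per kb), ACTB (2323 ± 140) and ASS1 had overlapping ranges with their neighbours, so their order is not resolved. ACTG1 was at 2057 ± 87.0 and RPL8 at 1618 ± 52.7 per kb. By counts alone HSPA8, a constitutive chaperone, and FLNA, an actin crosslinker, also entered the top 15, with 5368 ± 294 and 5085 ± 330 CPM. FLNA, a gene of 10379 counted bases, came to 490 ± 31.8 per kb.

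**Figure D1:**
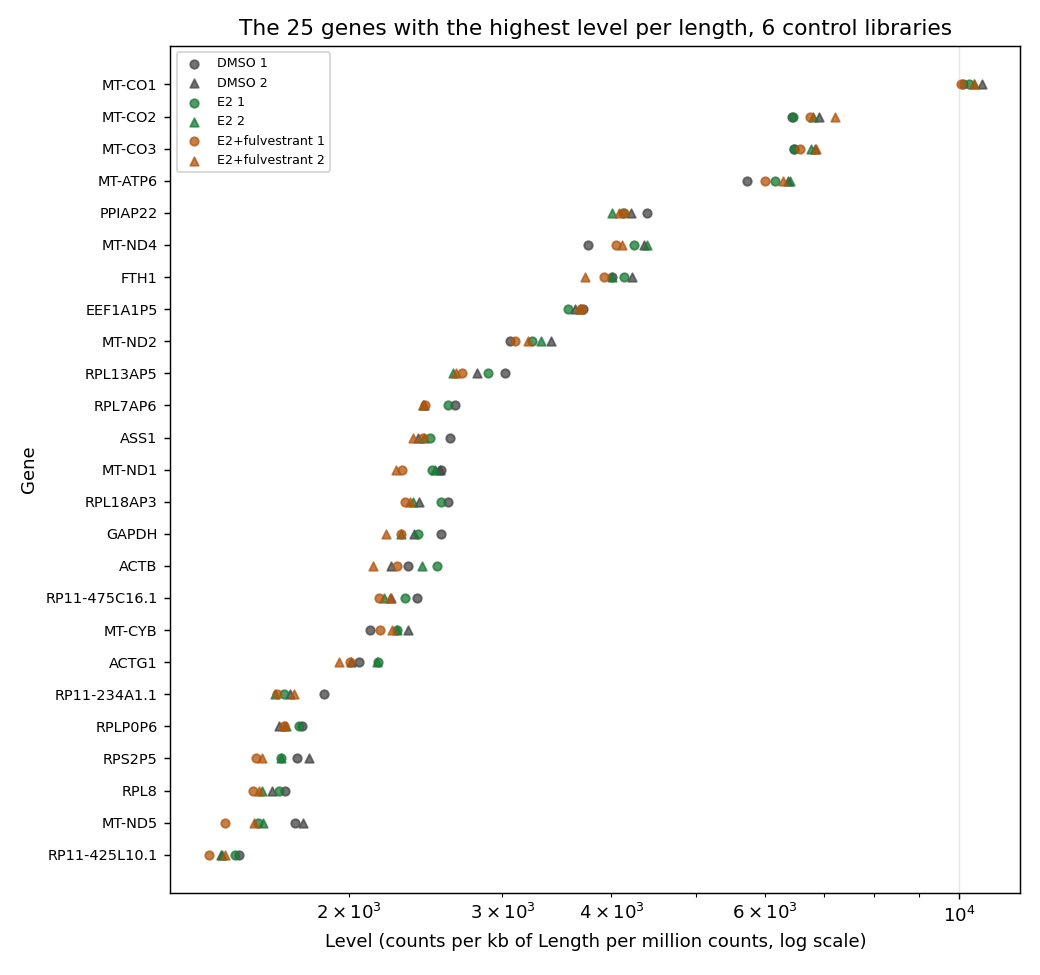
Level per length (x axis, log scale, CPM per kb) of the 25 highest genes, 1 symbol per library and colour by treatment. For each gene the 6 symbols lie close together, as for MT-CO1 at 10310 ± 207, compared with the distance from the top to the bottom of the list.

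Ranked next among nuclear coding genes were EEF2, HSPA8, ENO1, PABPC1 and FASN. These and the genes named in the next 3 sentences were picked from that ranking after their values were seen. FASN, fatty acid synthase, was at 871 ± 70.2 per kb over 33.3% of its v29 exon length. The calcium-binding S100A6 (over 32.0% of its v29 exon length), S100A4 and S100A11 were at 867 ± 41.1, 758 ± 39.5 and 695 ± 23.6 per kb. TM4SF1, a tetraspan surface protein of many carcinomas, was at 576 ± 21.3 per kb, and ALPI, an alkaline phosphatase named for intestine, was at 573 ± 29.6. ALPI is a close paralogue of the placental genes ALPP and ALPPL2. Its value is uncertain, since some reads of such paralogues may be assigned to the wrong row and ALPPL2 had no row by symbol.

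Pseudogenes named for a parent gene carried many counts. Of 3901 such copies with a parent row, 534 were present, and they held 4.46% of all counts. The copy had more counts than its parent in 72 of the 534. EEF1A1P5 had 6362 ± 89.2 CPM, compared with 1762 ± 50.4 for EEF1A1, the elongation factor it copies. RPL18AP3 had 1494 CPM and its parent 33.0, RPS3AP6 had 627 and its parent 24.8, and RPL13AP5 had 1755 and its parent 154. PPIAP22 had 2071 and PPIA, cyclophilin A, had 581. Reads of a processed copy and of its parent are nearly identical, so the rows of these families cannot be told apart here, and every value for such a parent is uncertain. Across 75 ribosomal protein genes with copies, the copies held 31.9% of the family's counts and exceeded the parent in 18. With the copies added, those families took 6.07% of all counts. EEF1G, a subunit of the same elongation complex, had 0 counts (105% of its v29 length). Whether that 0 reflects absence of the transcript was not tested. EIF4A1, a helicase of translation initiation, had 4.79 to 6.84 CPM. Its copies EIF4A1P10 and EIF4A1P2 had 358 and 50.4 CPM, so that the EIF4A1 row alone does not give the level of the family.

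**Figure D2:**
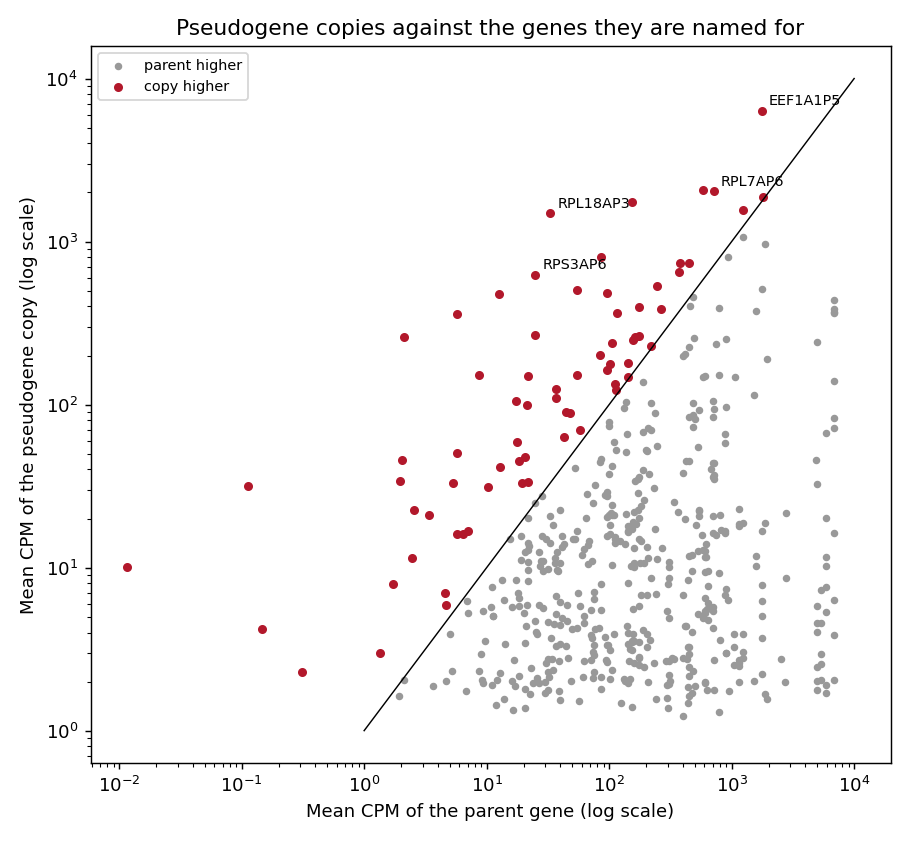
Mean CPM over 6 libraries of the 534 present pseudogene copies (y axis, log scale) against the gene each is named for (x axis, log scale), with the line of equality. Red points are the 72 copies with more counts than the parent, among them EEF1A1P5 at 6362 against 1762 CPM.

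KRT7, KRT8 and KRT18 and the mesenchymal genes VIM and S100A4 were all high, and several defining epithelial genes were at or near 0. Of 27 epithelial genes with a row, 14 were present (51.9%, compared with 64.6% of all coding symbols), 5 intermediate and 8 at or under the floor. Their median level was 0.73 per kb. KRT8, KRT7 and KRT18, the keratins of simple epithelium, were at 129 ± 5.05, 116 ± 5.73 and 102 ± 5.20 per kb. KRT8 had 615 and 584 CPM in DMSO, 618 and 579.7 in the E2 libraries, and 639 and 588 with fulvestrant added. The 3 treatments overlapped. JUP, a plakoglobin of junctions, was at 83.9 ± 5.76 per kb, AP1M2, a sorting adaptor of epithelium, at 50.6 ± 1.58, MUC1 at 47.0 ± 3.59, CLDN7 at 29.1 ± 1.80, ELF3 at 19.5 ± 1.64 and the splicing factor ESRP2 at 13.2 ± 0.686.

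Against these stood CDH1, the gene of E-cadherin, the adhesion molecule that holds epithelium together (chr16:68771215-68868933 in hg19, plus strand). It had 7 and 9 counts in DMSO, 11 and 4 in the E2 libraries, and 21 and 0 with fulvestrant added, over 89.8% of its v29 exon length. That was 0 to 0.680 CPM, and 1 library had no count. EPCAM, an epithelial surface protein, had 39 to 63 counts (1.32 to 2.04 CPM, 85.2% of its length). KRT19 had 0 to 3 counts over 91.5% of its length. Counts of 0 in all 6 were found for ESRP1 (92.3% of its length), GRHL2 (53.1%), OVOL1 (58.9%), OVOL2 (79.2%), RAB25 (97.7%) and EHF (31.0%). GRHL2, OVOL1 and OVOL2 are transcription factors that keep the epithelial state, and ESRP1 is the paralogue of ESRP2. Set against the label of an endometrial adenocarcinoma line, KRT7, KRT8 and KRT18 were high, while KRT19, CDH1 and the genes with 0 counts were at or near 0. The identity of the line was not tested.

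Of 12 mesenchymal genes with a row, 9 were present (75%, compared with 64.6% of all coding symbols), with a median of 3.72 per kb. Whether the share in so short a list differs from that of all coding symbols was not tested. VIM, vimentin of the mesenchymal cytoskeleton, was at 119 ± 3.79 per kb, the same order as KRT8, and its 6 libraries had 572 to 622 CPM. S100A4 was at 758 ± 39.5, ITGA5, the fibronectin receptor subunit, at 30.0 ± 1.32, and CDH2, N-cadherin, at 8.79 ± 0.62 per kb. ZEB1, a repressor of CDH1, had 27.3 and 32.5 CPM in DMSO, 28.1 and 33.1 in the E2 libraries, and 36.0 and 36.7 with fulvestrant added. The ranges of DMSO and E2 overlapped. FN1, fibronectin, was at 0.44 ± 0.038 per kb (98.4%), SPARC was intermediate (59.1%), and PRRX1 had 0 counts (53.6%). Stromal and fibroblast genes gave 7 present of 20, VIM and S100A4 among them, with FBLN1 at 93.9 ± 5.54 and COL5A1 at 53.0 ± 3.41 per kb, while COL1A2 (76.7%), LUM (46.4%), POSTN (98.4%), THY1 (42.5%) and FAP (99.5%) were at or under the floor. Another 7 of the 20 were intermediate and 6 were at or under the floor.

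**Figure D3:**
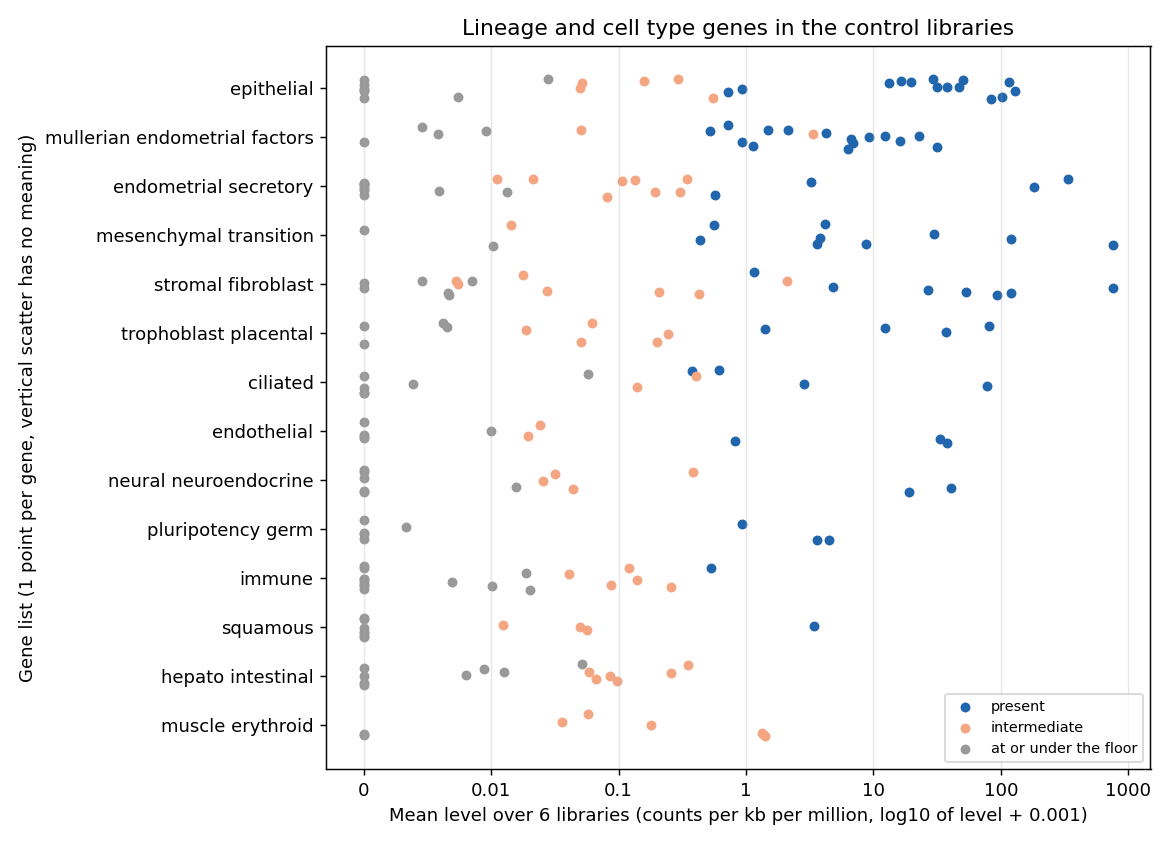
Mean level of each listed gene over 6 libraries (x axis, CPM per kb, log10 of level plus 0.001, labelled in levels), 1 row per gene list and colour by class. Epithelial genes span from 0 to KRT8 at 129 ± 5.05 per kb, and no hepatic and intestinal or muscle and erythroid gene is present.

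Transcription factors of the Müllerian tract and endometrium were present in 15 of 21 (71.4%, compared with 64.6% of all coding symbols). HOXA11, which patterns the uterus, was at 22.7 ± 1.53 per kb, with 47.2 and 44.6 CPM in DMSO, 52.3 and 46.6 in the E2 libraries, and 47.4 and 52.7 with fulvestrant added. HOXA10 was at 6.72 ± 0.589, GATA2 at 31.5 ± 1.04, TFAP2A at 16.3 ± 0.964 and TFAP2C at 12.3 ± 1.01 per kb. PAX8, a widely used marker of Müllerian epithelium, was low at 0.52 ± 0.054 per kb (68 to 95 counts, 67.8% of its length), and so was FOXA1, a pioneer factor for steroid receptors, at 0.715 ± 0.145 per kb (53 to 85 counts, 76.5% of its length). WT1 (87.2%) had 0 counts, and PAX2 (100%), EMX2 (41.1%) and HAND2 (52.8%) were at or under the floor. FOXO1 had 16 to 23 counts, with 2.86% of its length counted, so its low value says little.

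Secretory products of endometrial glands were mostly under the level called present. Of 21 genes, 4 were present, 8 intermediate and 9 at or under the floor, with a median of 0.020 per kb. ALPL, the tissue-nonspecific alkaline phosphatase, was at 335 ± 16.9 per kb, with 791 and 742 CPM in DMSO, 828 and 777 in the E2 libraries, and 769.8 and 717 with fulvestrant added. MSLN, the surface glycoprotein mesothelin, was at 182 ± 8.30 per kb. The secretory-phase gene PAEP (100%) had 0 to 8 counts, and WFDC2 (96.4%), TFF3 (94.9%) and PIGR (12.5%) had 0 in every library. Surface genes gave 17 present of 23, with the galectin LGALS1 at 369 ± 15.7 per kb and the tetraspanin CD63 at 360.0 ± 14.5. Next came L1CAM, an adhesion molecule of aggressive endometrial carcinoma, at 159 ± 7.53 per kb and MUC13 at 96.7 ± 5.29. L1CAM had 1057 to 1210.3 CPM.

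The remaining lineage lists had between 0% and 37.5% of their genes present, compared with 64.6% of all coding symbols. Immune genes had 1 present of 18, and the summed level of the list was 2.67 to 3.79 CPM. PTPRC (79.2%), CD3D (76.4%), CD3E (93.5%), CD4 (78.3%) and TYROBP (100%) had 0 counts. Endothelial genes had 3 of 10, ENG (37.6 ± 2.13 per kb), ESAM (33.3 ± 1.78) and ERG (0.82 ± 0.20), while KDR (41.5%), FLT1 (16.8%), TIE1 (94.6%) and EMCN (54.9%) had 0 counts. Neural genes had 2 of 12, TUBB3 (40.4 ± 2.20 per kb) and ENO2, a neuronal enolase (66.5 to 79.7 CPM). Squamous genes had 1 of 11, the desmocollin DSC3 at 3.39 ± 0.255 per kb, and KRT5 (83.4%) had 0 counts. Hepatic and intestinal genes had 0 of 14 and muscle and erythroid genes 0 of 8. Ciliated-cell genes had 4 of 12, with TUBA1A, a tubulin that many cells express, the highest at 77.3 ± 1.96 per kb. Pluripotency and germ cell genes had 3 of 8, with DNMT3B at 4.48 ± 0.277, and NANOG had 0 counts over 18.97% of its length.

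Placental genes were present in 4 of 13. PEG10, an imprinted gene derived from a retrotransposon, was at 80.4 ± 5.59 per kb, and ALPP, placental alkaline phosphatase, at 37.0 ± 6.47. ALPP had 69.1 and 58.8 CPM in DMSO, 82.7 and 62.4 in the E2 libraries, and 88.1 and 60.9 with fulvestrant added. In each treatment replicate 1 was the higher. CSH1 (99.6%) had 0 counts and PSG3 (97.4%) had 0 to 2 counts. The imprinted noncoding RNA H19 was at 256 ± 14.2 per kb, the highest of 9 present among 10 listed long noncoding RNAs, and GAS5 was at 48.1 ± 2.38.

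Among the steroid receptors, the glucocorticoid receptor was the most expressed per length, and both estrogen receptor genes had few counts. NR3C1 was at 12.5 ± 0.872 per kb (61.5 to 74.7 CPM). NR3C2, the mineralocorticoid receptor, was at 0.35 ± 0.071 (56 to 87 counts, 97.3% of its length). ESR1 (chr6:151977826-152450754 in hg19, plus strand), the gene of estrogen receptor alpha, had 17 and 24 counts in DMSO, 34 and 11 in the E2 libraries, and 16 and 15 with fulvestrant added. That is 0.328 to 1.103 CPM over 85.0% of its length, or 0.054 ± 0.024 per kb. ESR2 had 0 and 5 counts in DMSO, 7 and 9 in the E2 libraries, and 1 and 4 with fulvestrant added, or 0.041 ± 0.031 per kb over 36.2% of its length, which ESR1 did not exceed beyond the spread. PGR (chr11:100909792-100934756 in hg19, minus strand) had 0 counts in all 6 libraries, over 16.3% of its v29 length, so only part of the gene could be seen.

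**Figure D4:**
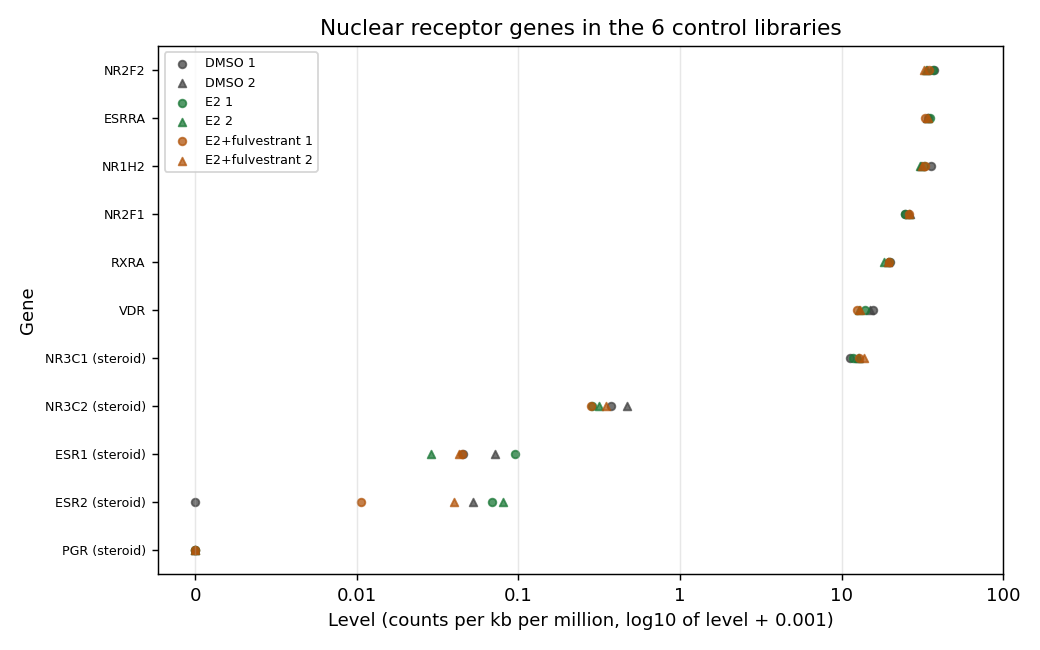
Levels of the 11 nuclear receptor genes named in the text (x axis, CPM per kb, log10 of level plus 0.001, labelled in levels), 1 symbol per library. The steroid receptor NR3C1 lies at 12.5 ± 0.872, while ESR1 and ESR2 lie near 0.05 and PGR at 0.

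Of the other nuclear receptors 23 of 39 were present (59.0%, compared with 64.6% of all coding symbols). NR2F2, an orphan receptor of stroma and vessels, led at 34.7 ± 1.94 per kb, but over 5.91% of its length. ESRRA, which drives mitochondrial genes, was at 34.1 ± 0.756, and NR1H2, an oxysterol receptor, at 32.3 ± 1.97. Their ranges overlapped from neighbour to neighbour. NR2F1 was at 25.7 ± 0.813, RXRA, the common partner, at 19.4 ± 0.528, and VDR at 13.8 ± 1.34 per kb. Coregulators with which receptors work were all present, 17 of 17, from DDX5 at 99.9 ± 3.84 per kb to PPARGC1A at 1.35 ± 0.14. NCOA1, NCOA2 and NCOA3, coactivators of the estrogen receptor, were at 3.58 ± 0.287, 3.76 ± 0.321 and 6.86 ± 0.442.

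Genes of steroid synthesis and clearance, with those for estrogen among them, gave 13 present of 23. SRD5A1, a steroid reductase, was highest at 45.1 ± 1.17 per kb, and AKR1C3, which can form E2, was at 19.1 ± 1.32. AKR1C1, AKR1C2 and AKR1C3 are close paralogues, so these values are uncertain. CYP19A1, aromatase, had 0 to 6 counts (61.5%), and SULT1E1, which inactivates estrogen, had 0 (77.9%). Of 24 textbook estrogen targets, 15 were present. SLC7A5, an amino acid transporter, was at 469 ± 17.5 per kb, IGFBP4 at 215 ± 7.90, MYC at 73.4 ± 2.18 and CCND1 at 22.9 ± 0.596. GREB1, a direct target and cofactor of the estrogen receptor, was at 0.59 ± 0.11 per kb (76.8%), with 5.25 and 4.34 CPM in DMSO, 5.61 and 7.46 in the E2 libraries, and 5.27 and 5.88 with fulvestrant added. The E2 libraries and the fulvestrant libraries all lay above both DMSO libraries, and E2 and fulvestrant overlapped. CXCL12 (34.2%) and SERPINA1 (62.2%) had 0 counts.

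Of 56 receptor tyrosine kinases, 24 were present (42.9%, compared with 64.6% of all coding symbols), 17 intermediate and 15 at or under the floor. EPHA2, an ephrin receptor, was highest at 70.7 ± 2.05 per kb, then EGFR at 45.7 ± 1.43, AXL at 35.8 ± 1.26, EPHB4 at 27.6 ± 0.708, MET at 26.9 ± 1.54 and IGF1R at 21.8 ± 0.396. IGF1R, the receptor of insulin-like growth factors, had 299 and 290.1 CPM in DMSO, 292 and 294 in the E2 libraries, and 297 and 284 with fulvestrant added. FGFR1 and FGFR3 were at 13.1 ± 0.637 and 16.8 ± 0.699 per kb, and FGFR2, often mutated in endometrial cancer, at 0.19 ± 0.035 (92.4%). KIT (23.1%), KDR (41.5%) and NTRK2 (8.8%) had 0 counts, and PDGFRA (52.9%) had 0 to 4 counts.

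Cytokine receptors were present in 26 of 33, led by TNFRSF12A, the TWEAK receptor, at 129 ± 4.81 per kb, with TNFRSF10B at 44.7 ± 1.60, CXCR4 at 34.0 ± 1.34 and LIFR, the receptor of the implantation cytokine LIF, at 12.1 ± 0.487. PRLR (23.2%), GHR (52.6%), CD40 (90.7%) and IL20RA (98.8%) had 0 counts. Receptors of the TGF-beta family were present in 9 of 12 (75%, compared with 64.6% of all coding symbols). TGFBR1 was at 29.9 ± 2.93 per kb. Wnt, Notch and hedgehog receptors were present in 10 of 15 (66.7%, compared with the same 64.6%). LRP5 was at 26.8 ± 0.754, LGR4 at 23.1 ± 1.55, FZD10 at 21.6 ± 0.738 and NOTCH2 at 14.1 ± 0.619 per kb. SMO, the hedgehog signal transducer, had 0 to 2 counts over 37.4% of its length. Of 24 G protein-coupled receptors of endometrial hormones, 6 were present (25%, compared with the same 64.6%), 5 intermediate and 13 at or under the floor. ADORA2B, an adenosine receptor, was at 11.2 ± 1.30 per kb and TBXA2R, the thromboxane receptor, at 10.3 ± 1.15. OXTR, the oxytocin receptor, had 7 to 29 counts (23%), and FSHR (99.7%), CALCRL (26.2%) and PTGFR (39.3%) had 0.

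Genes recurrently mutated in endometrial cancer were nearly all transcribed, with 23 of 25 present. PPP2R1A, a phosphatase scaffold, was highest at 53.0 ± 2.69 per kb. BCOR was at 49.8 ± 1.00 per kb, CHD4 at 45.6 ± 1.02 and CTNNB1 at 35.7 ± 1.83. The mismatch repair genes MSH6 and PMS2 were at 24.6 ± 1.72 and 8.40 ± 0.4998 per kb. ARID1A itself, the target of the hairpin in the other arm, was at 18.1 ± 0.791 per kb, with 116 and 119.8 CPM in DMSO, 124 and 127 in the E2 libraries, and 123 and 113 with fulvestrant added. SWI/SNF subunits were present in 26 of 28. Apart from ACTB, which is also a reference gene, SMARCB1 was highest at 71.5 ± 2.02, SMARCA4, an ATPase, at 17.8 ± 0.646, SMARCA2, its alternative, at 8.89 ± 0.376 and ARID1B, the paralogue of ARID1A, at 3.05 ± 0.183 per kb. The neural subunit ACTL6B (97%) had 0 to 1 counts. A transcript level says nothing of whether a gene is mutated.

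Proliferation genes were present in 26 of 26. MCM7, a subunit of the replicative helicase, was at 190 ± 5.94 per kb, CCNB1, a mitotic cyclin, at 184 ± 4.87, CDK4 at 171 ± 3.79 and MKI67 at 36.6 ± 4.07. CDKN2A, the p16 gene, was at 70.6 ± 3.56 and RB1 at 11.9 ± 1.04. BIRC5, survivin, was the lowest at 0.90 ± 0.11 (49 to 65 counts, 51.3% of its length). Glycolysis was present in 22 of 24, with ENO1 at 1227 ± 33.2, PGK1 at 470 ± 15.4, LDHA at 345 ± 16.2, LDHB at 338 ± 13.9 and PKM at 337 ± 11.1 per kb. PKLR (18.3%), a pyruvate kinase of liver, was at or under the floor. The median levels of the proliferation, glycolysis and translation lists were 61.9, 82.0 and 79.7 per kb, all above the 9.67 of present coding genes.

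Most genes were steady across the 6 libraries. Among the 8966 genes averaging 10 CPM or more, the SD of log2 CPM after TMM scaling had a median of 0.090, a 5th percentile of 0.039 and a 95th of 0.18. It was under 0.1 in 5342 of them (59.6%). The measured SD was a median of 2.42 times the SD that counting error gives. Within treatments the median SD was 0.082. Library pairs of the same treatment differed 6.42 to 7.95 times more than counting error (chi-square per degree of freedom) and pairs of different treatment 4.89 to 16.4 times, and no 2 libraries were identical. The first principal component held 44.7% of the variance. Replicate 1 of DMSO (0.57) and of E2 (0.49) lay at one end and replicate 2 of E2 with fulvestrant (-0.59) at the other. Both fulvestrant libraries lay below the other 4, and replicate 1 lay above replicate 2 in each treatment. The second component (15.9%) had both DMSO libraries (0.36 and 0.53) above the other 4.

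The 10 steadiest genes averaging 50 CPM or more, with a gene symbol, were YWHAE, H2AFY, GNB1, KIAA1671, PCID2, TIMELESS, WDR82, DDX27, APLP2 and KIAA1191. YWHAE, an adaptor protein that binds phosphorylated partners, had 545 and 553 CPM in DMSO, 543 and 557 in the E2 libraries, and 549 and 556 with fulvestrant added, an SD of 0.0096 in log2. That was under its counting error of 0.011. H2AFY, a macroH2A histone variant, had an SD of 0.010 and GNB1, a G protein beta subunit, 0.011. Among 4182 such genes 53 had an SD under the counting error, so the order among the steadiest is not resolved.

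The 10 most variable were CHCHD10, GPX1P1, RP11-641D5.1, CTD-2328D6.1, ALPP, ZNF638, HES4, MRPL17, ASPM and PRPF4B. CHCHD10, a mitochondrial protein gene, had 70.3 and 78.1 CPM in DMSO, 55.5 and 49.2 in the E2 libraries, and 47.1 and 62.7 with fulvestrant added, with an SD of 0.29. Its DMSO libraries were highest. ASPM, a spindle protein, had 39.9 and 52.5 CPM in DMSO, 44.5 and 58.3 in the E2 libraries, and 51.6 and 61.8 with fulvestrant added. ZNF638, a zinc finger protein, had 65.1 and 86.7 CPM in DMSO, 72.7 and 96.7 in the E2 libraries, and 92.2 and 101 with fulvestrant added. In both genes replicate 2 exceeded replicate 1 in every treatment. GPX1P1 is a pseudogene of GPX1, and its counts cannot be told apart from those of its parent.

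Genes used as references in expression assays were not uniformly the steadiest. Of 34 with a row, 33 averaged 10 CPM or more, and 27 had an SD below the median of all 8966 genes. Among the 34 were ACTB, ATP5B, B2M, C1orf43, CHMP2A, CYC1, EEF1A1, EIF4A2, EMC7, GAPDH, GPI, GUSB, HPRT1, IPO8, LDHA, PGK1, POLR2A, PPIA, PSMB4, RAB7A, REEP5, RPL13A, RPLP0, RPS18, SDHA, SNRPD3, TBP, TFRC, VCP, VPS29 and YWHAZ. EMC7 had an SD of 0.017, B2M 0.022, RAB7A 0.025, C1orf43 0.027 and VPS29 0.030. GAPDH and ACTB, the most used, had 0.086 and 0.096, at the 46.2 and 56.2 percentile of those 8966 genes. Both lay above 0.072, the median SD of the 4182 genes averaging 50 CPM or more with a gene symbol. The 27 were not counted against that lower median. GAPDH had 5356 and 4989 CPM in DMSO, 5040.4 and 4817 in the E2 libraries, and 4815 and 4630.0 with fulvestrant added. Its highest library was 1.16 times the lowest, and the corresponding ratio over all 34 ran from 1.04 to 1.36. The ratio was under 1.2 in 31 of the 34. Pseudogene copies held 5.70% of the counts of the GAPDH family and 0.062% of those of the ACTB family.

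**Figure D5:**
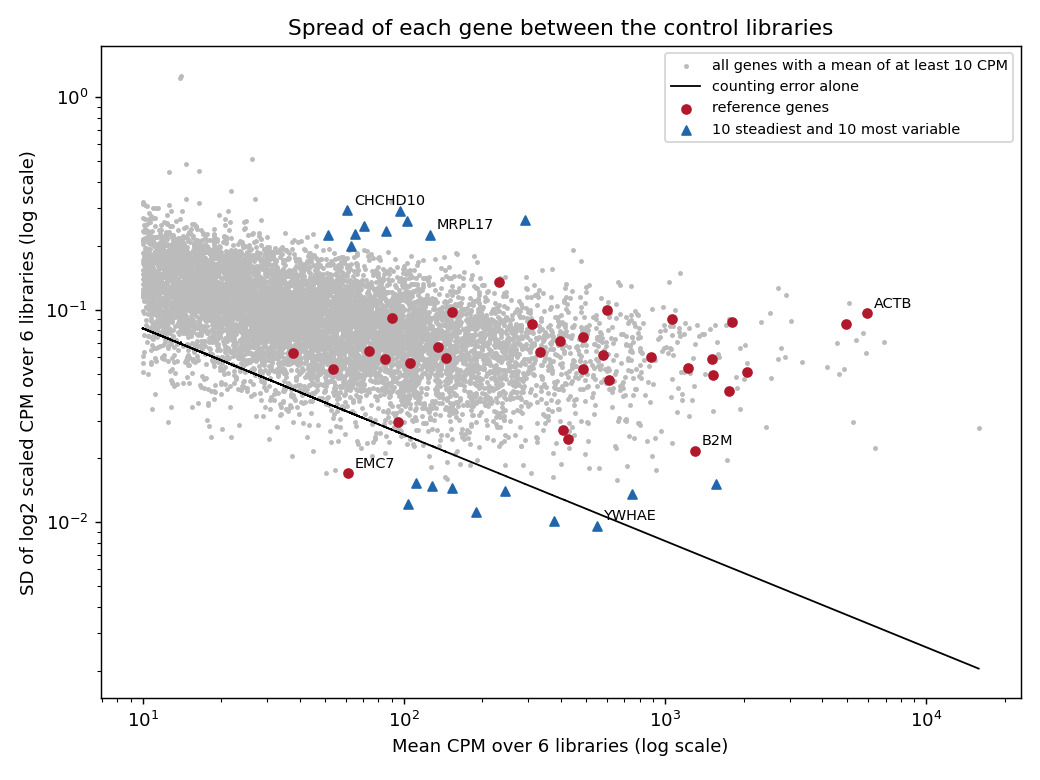
SD of log2 scaled CPM over the 6 libraries (y axis, log scale) against mean CPM (x axis, log scale), with the SD that counting alone would give as a line. Reference genes such as B2M (0.022) and ACTB (0.096) are red and the 10 steadiest and 10 most variable genes are blue triangles.

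The question of whether E2, or fulvestrant added to it, changed this baseline was tested in edgeR with contrasts inside the control arm, over 17020 genes. Across the 3 treatments 4 genes were called at an adjusted p under 0.05, or 0.0235% of those tested, compared with 1262 at an unadjusted p under 0.05. For E2 against DMSO 1 gene was called (0.00588%, 656 unadjusted), for E2 with fulvestrant against E2 1 gene (0.00588%, 1324 unadjusted) and for E2 with fulvestrant against DMSO 2 genes (0.0118%, 1615 unadjusted). DESeq2 called 17, 1, 2 and 13, but gave an adjusted p to only 1511, 17020, 2831 and 3491 genes. Of its calls 2, 1, 0 and 2 were shared with edgeR. A replicate block within each arm raised each of the edgeR counts, as given in the closing section. None of the 433 listed genes that were tested was called in any of the 4. For the 17 tested estrogen targets the median log2 fold change of E2 against DMSO was -0.032, compared with 0.00086 over all genes. GREB1 differed by 0.44 on the log2 scale (edgeR, adjusted p = 1.00).

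GNG5P2, a processed pseudogene on chromosome X (109589700-109590201 in hg19), was called for E2 in both contrasts. It had 7 and 4 counts in DMSO, 116 and 158 in the E2 libraries, and 6 and 0 with fulvestrant added, so the E2 libraries lay apart from the other 4. The log2 fold change was 4.54 ± 0.54 (SE) for E2 against DMSO (edgeR, adjusted p = 2.41e-05) and fell by 5.39 ± 0.61 when fulvestrant was added (adjusted p = 7.83e-06). Over 10 edgeR alternatives the largest adjusted p was 0.00633 and 0.00145. It is a copy of GNG5, a G protein gamma subunit gene, so its reads are not certain to come from this locus.

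Of the other called genes, MT-ND5, a subunit of respiratory complex I, had 3143 and 3209 CPM in DMSO, 2849.8 and 2890.4 in the E2 libraries, and 2611 and 2819 with fulvestrant added. It fell by 0.24 ± 0.041 (SE) on the log2 scale from DMSO to E2 with fulvestrant (edgeR, adjusted p = 0.0178). MRPL17, a mitochondrial ribosomal protein, had 145 and 139 CPM in DMSO, 142 and 115 in the E2 libraries, and 106 and 106 with fulvestrant added. It fell by 0.43 ± 0.074 (SE) on the same scale (edgeR, adjusted p = 0.0178). Over 10 edgeR alternatives the adjusted p ran from 1.87e-06 to 0.446 for MT-ND5, called in 8, and from 7.61e-07 to 0.446 for MRPL17, called in 6. DESeq2 gave an adjusted p of 2.51e-05 for MT-ND5 and 0.00014 for MRPL17. Fitted in edgeR on the 6 control libraries alone, MT-ND5 and MRPL17 both had an adjusted p of 0.0928. Without replicate 1 of E2 with fulvestrant, the edgeR adjusted p of MT-ND5 and MRPL17 was 0.446. The MRPL17 call was lost also without DMSO replicate 1 (edgeR, adjusted p = 0.212) or replicate 2 of E2 with fulvestrant (0.122). RP11-488C13.1 was called across treatments with 1 library apart from the rest. It had 6.44 and 52.9 CPM in DMSO, 5.68 and 5.82 in the E2 libraries, and 6.86 and 6.505 with fulvestrant added, and without DMSO replicate 2 its edgeR adjusted p was 0.882.

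Differences between treatments were small over all genes. Over the same 8966 genes, the median absolute log2 fold change was 0.053 for E2 against DMSO, 0.077 for E2 with fulvestrant against E2 and 0.084 for E2 with fulvestrant against DMSO. Only 2, 3 and 4 genes differed by more than 1.5-fold. Between the 2 libraries of 1 treatment, the median absolute log2 difference was 0.092 in DMSO, 0.094 in E2 and 0.084 in E2 with fulvestrant. Those values compare single libraries, while the fold changes between treatments compare groups of 2.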

How the data were processed

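Poly(A) RNA of 12 libraries was sequenced, and the 6 with the control hairpin are described. In the tests the other arm entered the gene filter, the TMM scaling and the estimate of spread, but no contrast. The deposited values are raw read counts per gene with a gene length, made by the authors with featureCounts 2.0.0 of Subread 2.0.0 after trimming with Trim Galore and cutadapt and checks with FastQC, on hg19, per the submitters' processing notes and the file headers. The strand setting is not given in the sources used here. Libraries held 28810351 to 33517594 counts. CPM used the total count, and levels per length used the deposited length. Tests used edgeR 4.0.16 (quasi-likelihood, TMM, filterByExpr, 1 mean per group over 12 libraries, R 4.3.3), with contrasts inside the control arm and Benjamini-Hochberg adjustment over 17020 genes at 0.05. The SE is the absolute log2 fold change over the square root of F. DESeq2 1.42.0, other scaling, no filter, left-out libraries and a replicate block were alternatives.

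Named were the 25 genes highest per length (300 bases or more), the 15 with most counts, list members that were highest, at the floor or central to a result, the 10 steadiest and 10 most variable genes above 50 CPM, reference genes, and called genes above 1 CPM. Members and lists were chosen with earlier results of these data known. Promoter windows came from the first-listed RefSeq start (GRCh38.p14), gene types from GENCODE v29, matched by symbol. No nonpolyadenylated nuclear RNA of the 18 listed had a row by symbol (0 matched). Some listed genes are not reported here.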

Additional observations from a re-analysis of the deposited data

How the results depend on the processing

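Counts of called genes were small and moved with the processing. Across the 3 treatments edgeR called 4 genes, compared with 1 on the 6 control libraries alone, 17 with DESeq2, 58 with no filter on low counts and 1 to 11 with a library left out. For E2 against DMSO the count was 1, with 12 without the filter and 1 to 4 with a library left out. For E2 with fulvestrant against E2 it was 1, with 2 in DESeq2, 19 without the filter and 1 to 5 with a library left out. For E2 with fulvestrant against DMSO it was 2. On the 6 control libraries alone edgeR called 0, with 1457 at an unadjusted p under 0.05. DESeq2, which was fitted only on all 12 libraries, called 13, and edgeR without the filter called 50. With a replicate block within each arm the 4 counts were 21, 5, 5 and 23; the labels state no shared batch behind the numbers, and replicate differences of 2 treatments correlated at 0.35, 0.22 and 0.23. The number of present genes, 12707, was 13702 at 0.5 CPM, 11778 per kb and 14432 at 10 counts. The top 100 genes held 21.4% of counts, 18.4% without mitochondrially encoded genes, 34.1% per kb, and 22.7% with pseudogene counts added to the named gene, which was chosen after seeing the data. The median SD of 0.090 was 0.072 at 50 CPM or more, 0.082 within treatments and 0.082 to 0.092 with a library left out. The cause of these shifts was not tested.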
